A study of Mus musculus with 7 samples.

Results

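Retinoic acid is made, removed and sensed by a small set of genes, and the 10 described here are the retinaldehyde dehydrogenases Aldh1a1, Aldh1a2 and Aldh1a3, the retinaldehyde reductase Dhrs3, the retinoic acid hydroxylases Cyp26a1, Cyp26b1 and Cyp26c1, and the nuclear receptors Rara, Rarb and Rarg. They were chosen by name out of 20923 protein-coding genes, and every deposited ATAC-seq peak from 50 kb upstream to 50 kb downstream of each gene body was assigned to them on the mouse build GRCm38 (mm10). ATAC-seq uses a transposase that inserts sequencing adapters into accessible DNA, so that tags pile up where chromatin is open. The 7 libraries gave between 213 and 303 peaks in these windows. Peaks with a q-value of at most 0.01 in any library, merged where they overlapped, formed 207 regions out of 208466 in the genome, of which 17 lay in the windows of both Cyp26a1 and Cyp26c1, which are neighbours on chromosome 19.

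The libraries came from cells of the second heart field (SHF) region of mouse embryos at E9.5, sorted by flow cytometry from dissected and pooled tissue. In the Hoxb1GFP line GFP stands in the Hoxb1 locus and marks progenitors of the posterior SHF (pSHF), and there were 2 libraries of GFP+ cells (replicates 3 and 4) and 2 of GFP- cells (replicates 1 and 2). The GFP allele disrupts Hoxb1, GFP- cells carry it as well, and its zygosity in the sorted embryos is not given in the sources used here. In the Mef2c-Cre;RosatdT line a Cre driven by an anterior heart field enhancer of Mef2c switches on tdTomato in the anterior SHF (aSHF) and its descendants, a lineage mark that also reaches some posterior cells, and there were 2 libraries of Tomato+ cells (replicates 6 and 8) and 1 of Tomato- cells (replicate 7). Population and mouse line differ together between GFP+ and Tomato+ cells and cannot be told apart. The labels give no treatment. The study calls its replicates biological, but they are named by adapter number and the sources do not say from which collection each came, so that p-values measure the spread between libraries.

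In the embryo retinol is oxidised to retinaldehyde and then, by the Aldh1a enzymes, to retinoic acid. Aldh1a2 is the main source in trunk and lateral mesoderm, Dhrs3 returns retinaldehyde to retinol, and the Cyp26 enzymes clear retinoic acid from tissues that must stay free of it. The receptors bind DNA as heterodimers with RXR, often at direct repeats of a hexamer spaced by 5 bases (DR5), and Rarb and Cyp26a1 are themselves well-known targets of retinoic acid. In the heart, retinoic acid made behind the cardiac field sets its posterior limit and acts on the Hox-expressing progenitors of the SHF.

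Each deposited peak carries a fold enrichment, which is the ratio of the tag pileup at its summit to the local background of the same library, and a −log10 q-value. A −log10 q of 2 or more is a q of at most 0.01. The libraries held 187914 to 291287 peaks, of which 64306 to 77746 had a q of at most 0.01, and about 52300000 to 93100000 tags as computed from the background rates. Fold enrichments are given as deposited, without normalization between libraries, and the limma tests used normalized values.

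The 4 DR5 elements that lay in a peak are shown first, since the receptors often bind at such repeats. They are matches of sequence, and binding was not measured here. A hexamer was AGGTCA or, as a variant of it, AGTTCA. The forms that begin with G, namely GGGTCA as well as GGTTCA, were searched too, and any pair of these on either strand was taken. Each sequence is read from the GRCm38.p6 assembly in RefSeq, 5′ to 3′ on the strand given, and capitals mark both hexamers. The Rara element lies at chr11:98959968-98960064 (+ strand), the Rarb element at chr14:16575477-16575569 (− strand, the strand of the gene), and both Cyp26a1 elements are shown on the + strand, at chr19:37695869-37695965 and chr19:37697736-37697807. The name of each gives the position of its first base relative to the start site.
Rara promoter 3 DR5 at -463: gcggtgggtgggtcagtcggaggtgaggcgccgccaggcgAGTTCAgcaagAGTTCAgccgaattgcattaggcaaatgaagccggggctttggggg
Rarb promoter 2 DR5 at -53: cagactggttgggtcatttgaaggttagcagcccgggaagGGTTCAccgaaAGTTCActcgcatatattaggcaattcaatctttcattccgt
Cyp26a1 upstream DR5 at -1899: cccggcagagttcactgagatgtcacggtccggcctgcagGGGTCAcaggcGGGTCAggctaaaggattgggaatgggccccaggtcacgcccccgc
Cyp26a1 promoter DR5 at -32: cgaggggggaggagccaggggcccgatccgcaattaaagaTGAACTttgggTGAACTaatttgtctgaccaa

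The next sequence is the Aldh1a2 region with peaks only in the GFP+ libraries, in intron 1 at chr9:71230183-71230295 (+ strand). Capitals mark TGACAG, the core motif of MEIS factors, on the opposite strand, and TGATTNAT, a composite PBX-HOX motif, on the strand shown. The last sequence is the summit, with the summit base in capitals, of the region with the largest decrease in GFP+ against Tomato+ cells. It lies downstream of Aldh1a2 at chr9:71323866-71323986 (+ strand) and is an imperfect tandem array of a unit of 5 bases.
Aldh1a2 intron 1 region: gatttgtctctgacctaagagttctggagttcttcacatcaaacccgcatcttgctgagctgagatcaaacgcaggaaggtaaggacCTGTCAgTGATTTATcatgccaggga
Aldh1a2 downstream region: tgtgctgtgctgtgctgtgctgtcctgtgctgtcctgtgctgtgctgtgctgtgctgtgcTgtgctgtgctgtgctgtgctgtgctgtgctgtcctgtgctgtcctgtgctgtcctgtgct

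The promoters of most of these genes were accessible in every population. A promoter was taken as 1000 bases before to 100 bases after a curated RefSeq start site, and 6 of the 10 genes (Aldh1a2, Aldh1a3, Dhrs3, Rara, Rarb and Rarg) had a promoter peak with a q of at most 0.01 in all 7 libraries. Over all protein-coding genes 53.3% did, so that the share of these genes is near the background. Between 6 and 9 of the 10 passed in a single library, where 61% to 63.9% of genes did. The median fold enrichment of their strongest promoter peaks was 3.30 to 4.10 in the libraries, below the median over all genes with such a peak, which was 5.59 to 6.21. Promoter values below are of the strongest peak overlapping a promoter in each library, and its summit can differ between libraries.

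Among the synthesis genes Aldh1a2 had the strongest and most uniform promoter. Its fold enrichment was 4.89 and 4.66 in the GFP+ libraries (replicates 3 and 4), 3.91 and 3.81 in the Tomato+ libraries (replicates 6 and 8), 4.03 and 4.55 in the GFP- libraries (replicates 1 and 2) and 4.49 in the Tomato- library, an order of libraries kept in all lists of 7 values that follow. Both GFP+ values lay above the other 5, by little. Of the promoters here that of Cyp26a1 had this arrangement too. Among all merged regions with peaks in all 7 libraries 6.27% had it, and a share over promoters was not computed. Beyond the promoter but in the same merged region, a peak in intron 1 with its summit 715 bases after the start site reached 5.43 in Tomato+ replicate 6, so that over the whole region the groups overlapped.

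Aldh1a3, which is used mainly in eye and nasal tissues, had a promoter fold enrichment of 3.95, 3.81, 3.56, 4.74, 4.16, 3.33 and 3.51, and the groups overlapped. Aldh1a1 had no peak at its upstream promoter in any library. At its second annotated promoter a peak was listed at 2.11 and 3.50 in the GFP+ libraries and 3.29 in Tomato+ replicate 6, and in none of the other 4. Only the peak of GFP+ replicate 4 had a q of at most 0.01. Dhrs3, a gene induced by retinoic acid in many tissues, had 3.41, 3.66, 3.74, 2.72, 4.66, 4.92 and 3.36, so that both GFP- libraries were the highest and Tomato+ replicate 8 the lowest.

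The Cyp26 genes, which clear retinoic acid, had low promoter values. A peak over the Cyp26a1 promoter was listed in all 7 libraries, at 4.32, 3.16, 2.84, 3.09, 2.74, 3.01 and 2.43, with a q of at most 0.01 in 5. Its summit lay at -604 in Tomato+ replicate 8 and at -269 in the Tomato- library. In the remaining libraries it lay 65 to 271 bases after the start site, so that the values are not of 1 site. GFP+ replicate 3 had the highest value. Cyp26c1, next to it, had 2.45 and 3.05 in GFP+ cells, 3.02 in Tomato+ replicate 8, 2.58 and 3.05 in GFP- cells and 3.13 in Tomato- cells, with no peak in Tomato+ replicate 6. Cyp26b1 had a promoter peak in 2 libraries only, at 2.50 in Tomato+ replicate 6 and 2.89 in GFP- replicate 2. None of the 3 hydroxylase genes had a promoter peak of q at most 0.01 in all libraries.

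The receptor genes use several promoters each. The downstream promoter of Rarb, which carries the DR5 at -53, was the strongest of all 16 promoters examined, at 6.67, 6.74, 5.55, 8.31, 6.27, 6.01 and 7.32, and stood in the top 3.64% to 6.30% of each list. The Tomato+ libraries were the lowest and the highest of the 7, so that the GFP+ values lay between them. The upstream Rarb promoter had a peak in 3 libraries, at 2.26 in Tomato+ replicate 8 and at 3.27 and 3.26 in the GFP- libraries. It had none in GFP+ cells.

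At Rara, which is expressed almost everywhere, the first promoter was listed in every library at 3.26, 3.61, 3.88, 3.61, 4.0, 3.18 and 3.56, all with a q of at most 0.01. The second had no peak. The third, which holds the DR5 at -463, had 3.68, 2.57, 2.52, 2.49, 2.35, 2.92 and 2.63, with GFP+ replicate 3 alone above 3. The summit of that library lay 280 bases after the start site, and those of GFP- replicate 2 and the Tomato- library at -862 and -726. These values are thus not of 1 site. At the fourth, peaks reached into the promoter in 5 libraries, at 2.54 and 2.6 in Tomato+ cells, 2.49 and 1.82 in GFP- cells and 1.87 in Tomato- cells. In the GFP+ libraries the peaks of that region were listed at 2.01 each but ended before the promoter. Rarg had 2.24, 3.24, 2.90, 2.49, 2.34, 3.30 and 2.86 at its first promoter and 2.94, 3.39, 3.93, 2.57, 3.10, 3.08 and 2.73 at its second, and at both the GFP+ and Tomato+ values overlapped.

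**Figure D1:**
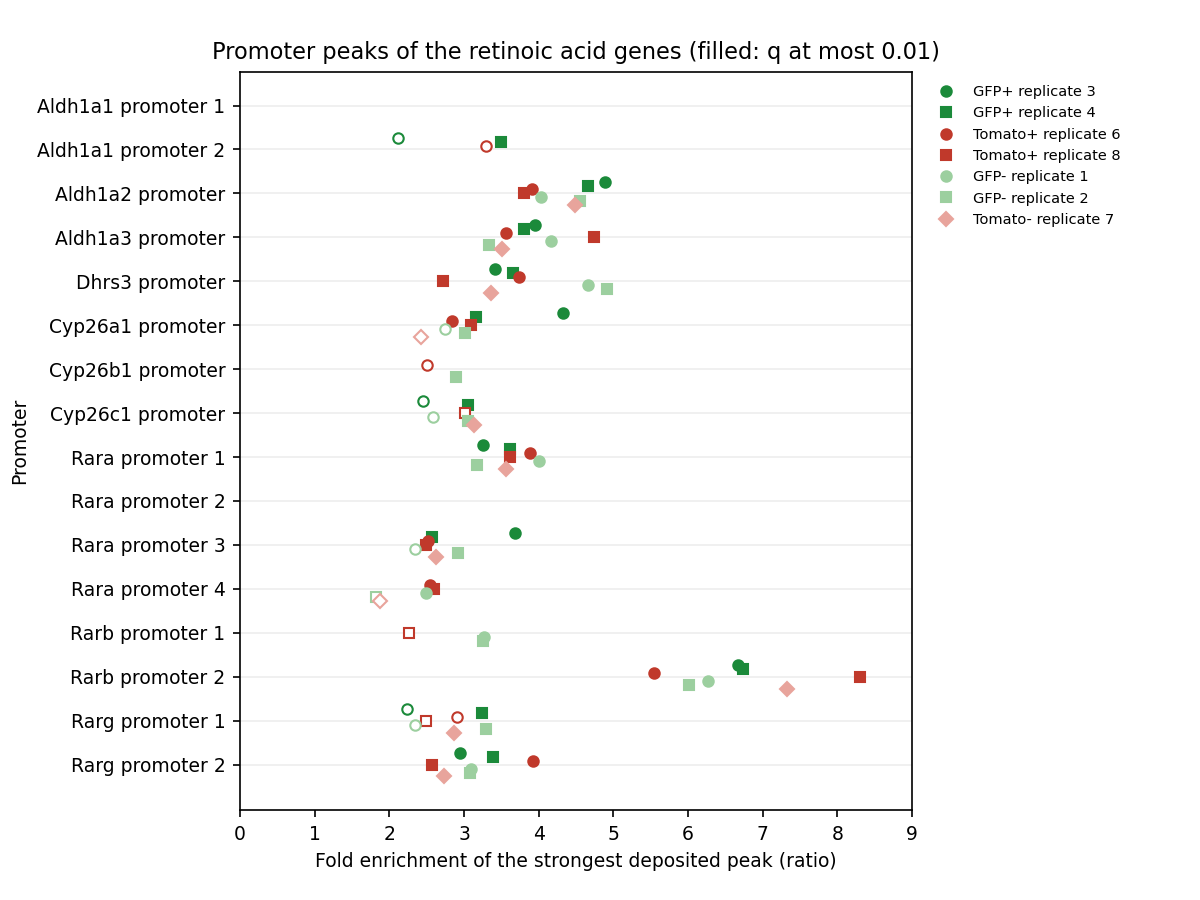
Fold enrichment (ratio, x axis) of the strongest deposited peak over each of the 16 annotated promoters of the 10 genes (y axis), 1 symbol per library, filled where q was at most 0.01 and left out where no peak was listed. Rarb promoter 2 lies at 5.55 to 8.31, to the right of all others, and both GFP+ symbols lie at the right end for Aldh1a2 and Cyp26a1.

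The DR5 elements lay in very different surroundings. The Rarb element, whose bases run from -53 to -37 of the downstream start site, was inside the promoter peak in all 7 libraries. The Rara element was wholly inside a peak in 2 libraries, at 2.57 in GFP+ replicate 4 and 2.27 in Tomato- replicate 7, and was touched by a peak in 5. The distal Cyp26a1 element at -1899 was inside a peak of the region chr19:37695871-37696099, between Cyp26c1 and Cyp26a1, in 4 libraries, at 2.84 and 2.38 in GFP+ cells, 3.10 in Tomato+ replicate 6 and 2.27 in GFP- replicate 2. In the other 3 the nearest peak was 1223 to 1903 bases away. That region was outside the naming rule and was singled out after its values were seen. The proximal Cyp26a1 element, on the strand opposite to the gene at -32 to -16, was inside a peak only in GFP- replicate 2, at 2.22, and in the remaining libraries the nearest peak was 32 to 144 bases away.

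The windows of the 10 genes held 16 DR5, 16 DR1 and 18 DR2 elements, that is repeats of the same hexamers spaced by 5, 1 and 2 bases. Of these, 3 DR5, 1 DR1 and no DR2 lay in a region, where over the genome 3.18% of 8941 DR5, 3.26% of 16478 DR1 and 2.05% of 27183 DR2 elements did. With so few elements per window these counts are a description. No DR5 was found in the windows of Aldh1a2 or Aldh1a3, and the single elements near Aldh1a1, Cyp26b1 and Dhrs3 were in no peak. A DR5 in the 300 bases around the summit was present in 0.170% of all regions, and in 2 of the 207. In RefSeq's promoter table, which covers 250 bases before to 50 after the start site and matched 9 of the 10 genes with 16 entries, 2 entries (Rarb and Cyp26a1) held a DR5, against 0.0974% of 32851 entries.

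**Figure D2:**
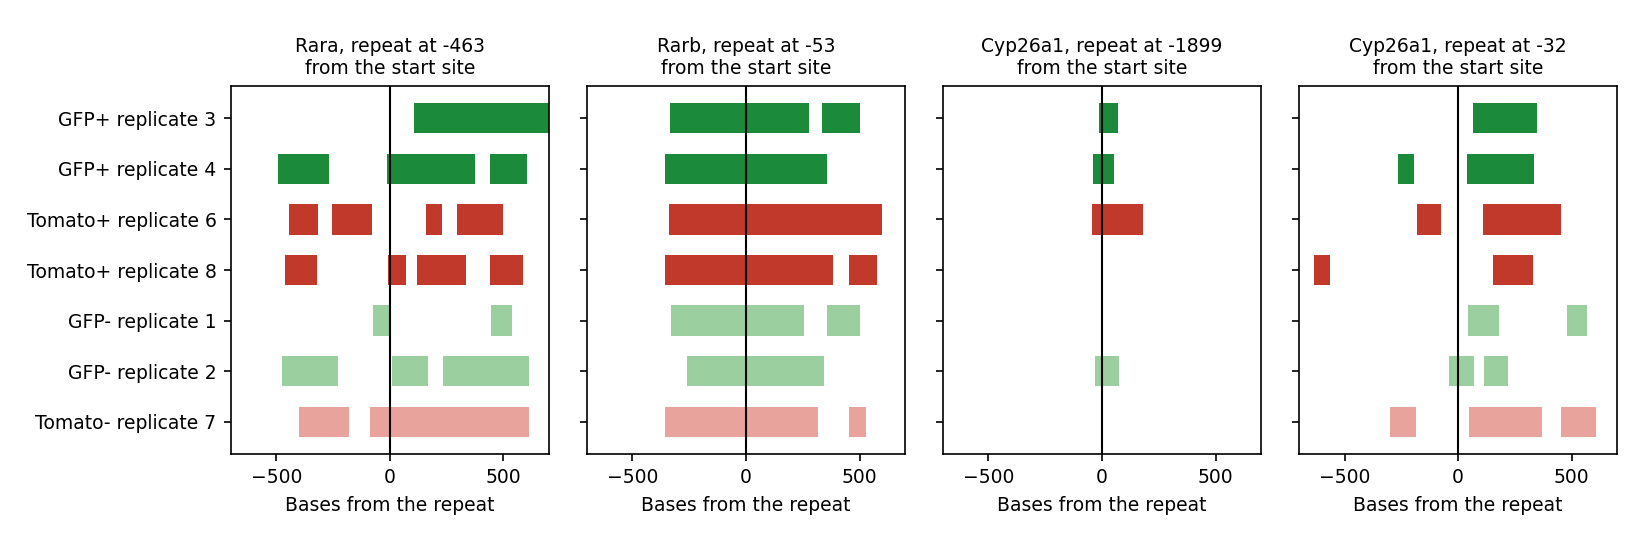
Extent of every deposited peak (bars, 1 row per library) around the 4 DR5 elements, as distance in bases from the element (vertical line). The Rarb element is covered in all 7 rows, the distal Cyp26a1 element in 4, and the proximal Cyp26a1 element in 1, beside peaks that begin downstream of it.

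Outside the promoters the genes differed in how many peaks surrounded them. Rarg and Rara had the densest windows, with a median over libraries of 9.79 and 9.51 peaks of q at most 0.01 per 100 kb, and Aldh1a1 had the sparsest with 0.4. Cyp26a1 had 4.82, Cyp26c1 4.62, Aldh1a3 5.12, Dhrs3 5.16, Aldh1a2 2.77, Cyp26b1 2.45 and Rarb, whose gene body alone spans 651.5 kb, 1.86. The median of the 10 genes was 4.72 and that of all protein-coding genes 4.44, with quartiles of 2.33 and 6.86. Rara also stood in the highest local background, with a median of 1.80 to 2.67 times that of the genome in its peaks, where the other genes were at 1.0 to 2.0. The part of that background in the fold enrichments was not tested.

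Of the 207 regions, 20 lay over a promoter of these genes, 8 over a promoter of another gene and 179 off promoters. A peak was present in all 7 libraries in 42 of them, or 20.3%, against 16.1% of all regions, and in a single library in 54. A q of at most 0.01 in all 7 was reached in 21. Regions with peaks in all libraries were most frequent at Rara (13 of 27) and rarest at Aldh1a1 (0 of 5), Cyp26b1 (1 of 18), Aldh1a3 (2 of 27) and Aldh1a2 (2 of 14).

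The Aldh1a2 gene body held more peaks in GFP+ cells than in any other library. There were 22 and 18 in the GFP+ libraries, 6 and 5 in the Tomato+ libraries, 4 and 7 in the GFP- libraries and 7 in the Tomato- library. Relative to the number of peaks in each list this was 7.58 and 8.65 per 100000 in GFP+ cells, against 2.44, 2.42, 2.14, 3.05 and 3.48. The lower GFP+ share was 2.18 times the highest of the others. Both GFP+ shares were above the other 5 in the bodies of 2.27% of all protein-coding genes, and among these 10 genes for Aldh1a2 alone. A ratio of 2.18 or more was reached by 4 of 18806 genes with a peak in another library. These counts were drawn up after the Aldh1a2 values had been seen.

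The additional peaks were weak. In the gene body 1 and 6 GFP+ peaks had a q of at most 0.01, against 3, 0, 1, 4 and 3 in the other libraries, where the groups overlapped. The median fold enrichment of gene body peaks was 2.56 and 2.88 in GFP+ cells and 2.59 to 3.45 in the others. The peaks covered 3190 and 3343 bases of the gene in GFP+ cells and 1195 to 1816 bases elsewhere. Counting only peaks with a p of at most 0.001, the gene body held 11 and 14 in GFP+ cells and 3 to 6 in the rest.

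Over the whole Aldh1a2 window the counts were 37 and 30 in GFP+ cells and 11, 22, 11, 14 and 22 in the rest, so that the groups did not overlap there either. Window counts of both GFP+ libraries exceeded those of the other 5 at 5.49% of all genes, and here at Aldh1a2 and Aldh1a3. Aldh1a3 had 35 and 27 against 21, 25, 26, 26 and 26. After division by the library total the pattern was left at 2.65% of genes, and at Aldh1a2 only.

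**Figure D3:**
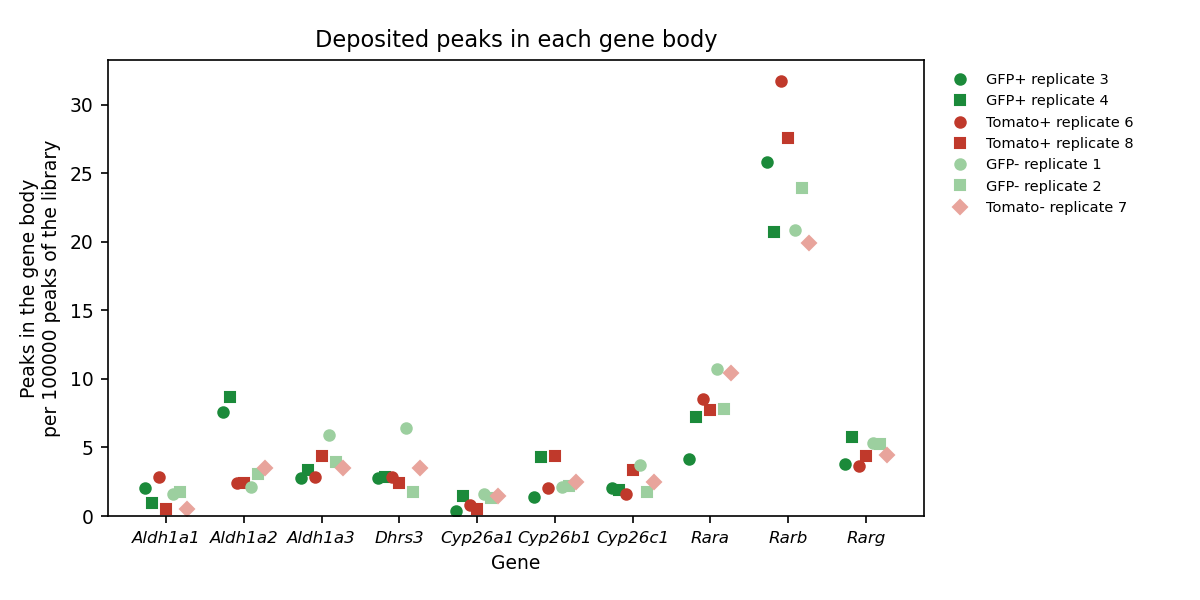
Deposited peaks in the body of each gene per 100000 peaks of the library (y axis), 1 symbol per library. For Aldh1a2 the GFP+ symbols lie at 7.58 and 8.65 and the other 5 at 2.14 to 3.48, while for the other 9 genes at least 1 GFP+ symbol falls among or below the rest.

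In intron 1 of Aldh1a2 the region chr9:71230183-71230295, 14456 bases after the start site, had peaks of fold enrichment 2.71 and 4.0 in GFP+ cells and none in the other 5 libraries. Its −log10 q was 0.935 in GFP+ replicate 3 and 4.26 in replicate 4, so that 1 of the pair passed q 0.01. Its sequence, printed above, holds TGACAG and TGATTNAT 1 base apart. A distance of at most 10 bases between them, a limit set after this sequence was seen, was found within 300 bases around the summit in 0.0950% of all regions and in 2 of these 207. TGACAG alone was in 21.8% of regions and 43 of these, and TGATTNAT alone in 2.92% and 10 of these. A region in intron 13, chr9:71295552-71295666, had 3.01 and 3.08 in GFP+ cells and 2.16 in the Tomato- library. Another region, in intron 12, chr9:71293155-71293274, had 3.01 and 2.66 in GFP+ and 2.52 and 3.53 in GFP- cells and none in the Mef2c-Cre;RosatdT line. It was outside the naming rule and was singled out after its values were seen.

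Downstream of Aldh1a2 the order was the opposite. The intergenic region chr9:71323711-71324138, with its summit 108137 bases after the start site, had fold enrichments of 2.90 and 3.20 in GFP+ cells and 6.03, 5.40, 5.06, 4.54 and 7.37 in the other libraries. Both GFP+ values were below the other 5, as they were in 6.51% of all regions with 7 values and in 1 of 42 near these genes. The normalized log2 difference of GFP+ from Tomato+ cells was −0.92 ± 0.28 (SE, 2 libraries a group) and was not called by limma (adjusted p = 0.443 over all regions). At its summit 91.4% of bases equalled the base 5 positions before, 81.1% of the region was marked as repeat by the assembly, and 61.1% of its runs of 49 bases, the length of 1 tag, occurred elsewhere in the genome. Whether tags from other copies contributed was not tested.

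**Figure D4:**
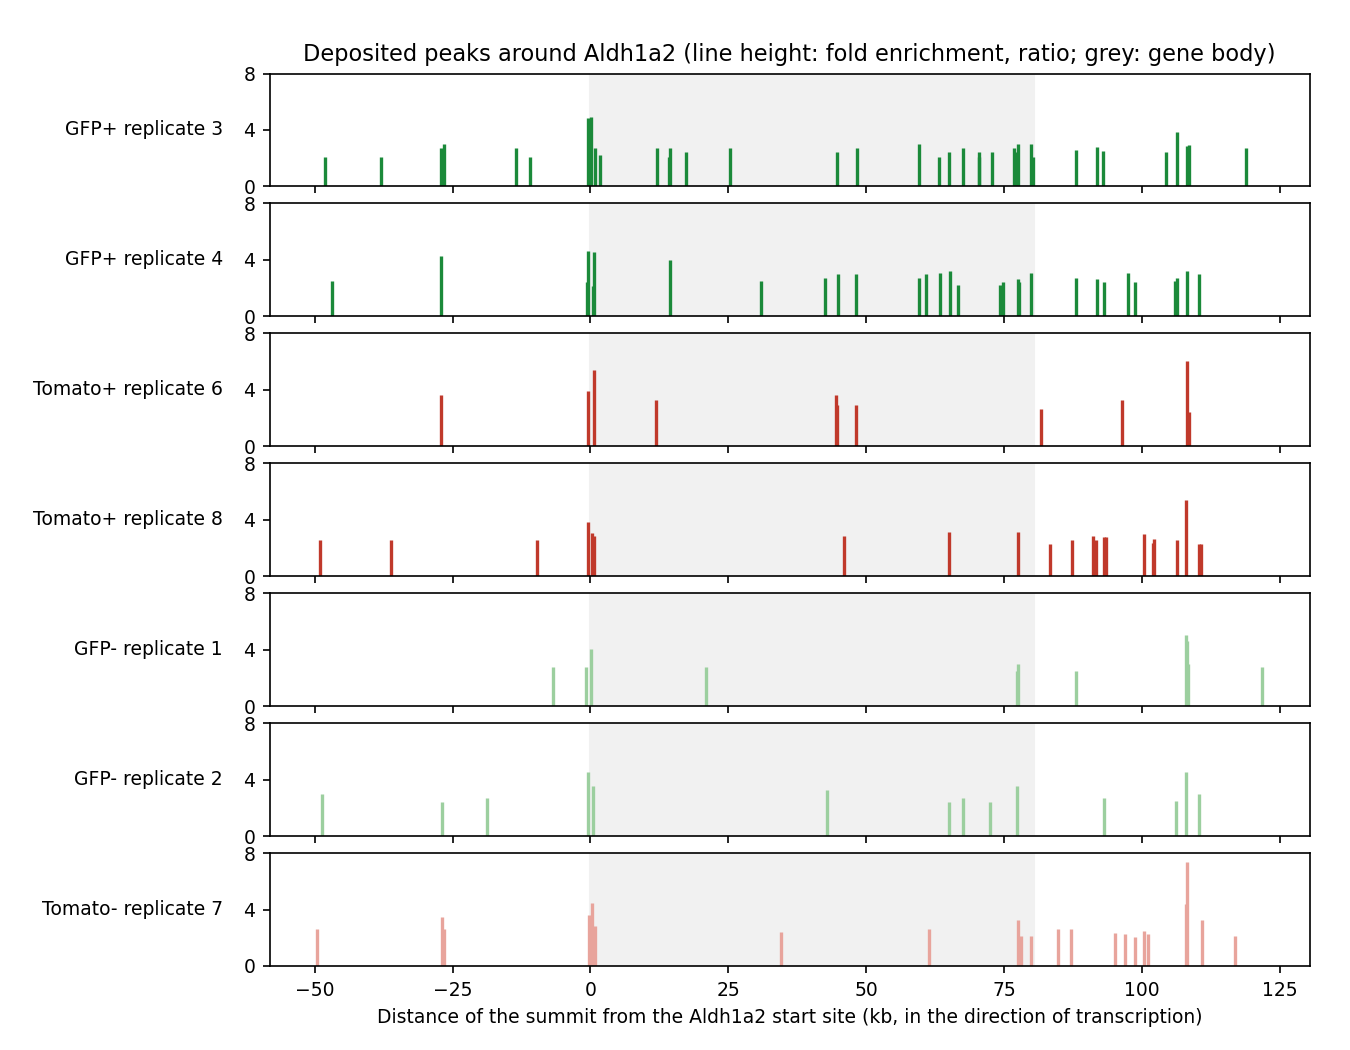
Deposited peaks around Aldh1a2 in each library (rows), plotted by the distance of the summit from the start site in kb (x axis) with the fold enrichment as line height (ratio, y axis) and the gene body in grey. GFP+ rows hold 22 and 18 lines within the gene body, other rows 4 to 7, and the line 108 kb downstream is lower in both GFP+ rows.

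The comparison of GFP+ with Tomato+ cells asked whether accessibility near these genes differed between pSHF and aSHF progenitors. Of the 207 regions, 52 had a peak in all 4 libraries and were tested with limma on log2 fold enrichment, together with all other such regions. None was called at an adjusted p below 0.1, and 3 had an unadjusted p below 0.05. In the genome 0.01% of 39984 regions (4) were called and 7.62% had an unadjusted p below 0.05. The median log2 difference was 0.052 near these genes and 0.0068 over all regions, and the differences ran from −0.92 to 0.74. At the 10 tested regions over promoters of these genes the differences ran from −0.34 to 0.53. On simulated data with this number of libraries and regions, 56 of 100 regions with a log2 change of 1 were called. The simulated spread was smoothed over regions of like intensity and changes were planted, so that this share need not hold here. In the data the difference of −0.92 was not called, and differences of about this size or smaller could be missed. The paper used DiffBind and lists Aldh1a2 among loci with a peak more open in GFP+ cells and higher expression there. That measure was not computed here. Of the 14 regions near Aldh1a2, 2 had a peak in all 4 libraries and were tested.

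Both GFP+ values lay above both Tomato+ values in 7 of the 52 regions, against 16.4% of all regions tested, and below them in 7, against 20.2%. The largest difference towards GFP+ was at exon 8 of Wipf2, in the Rara window (chr11:98902641-98902925), at 3.50 and 3.88 in GFP+ cells against 2.11, 2.33, 2.55, 2.33 and 2.57. Its log2 difference was 0.74 ± 0.24 and was not called by limma (adjusted p = 0.515). It was 1 of 2 regions, with that of the Cyp26a1 promoter, where both GFP+ values exceeded the other 5, a pattern of 6.27% of all regions.

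The Cyp26a1 promoter region, chr19:37697824-37698391, had 4.32 and 3.16 in GFP+ cells and 2.84, 2.36, 2.74, 3.01 and 2.72 elsewhere. GFP+ replicate 4 was barely above GFP- replicate 2. The log2 difference from Tomato+ cells was 0.53 ± 0.26 (limma, adjusted p = 0.668), and it was 0.32 without GFP+ replicate 3, 0.76 without GFP+ replicate 4 and 0.32 with pileup scaled to the tags of each library. Lower in GFP+ cells, beside the region downstream of Aldh1a2, were a region in intron 20 of Exoc6 in the Cyp26a1 and Cyp26c1 windows (chr19:37677412-37678052) and one in intron 1 of Rara (chr11:98941915-98942508). The Exoc6 region had 2.71 and 3.0 in GFP+ against 3.94 and 3.96 in Tomato+ cells (log2 difference −0.44 ± 0.26, limma adjusted p = 0.737). It was, with 3.27 and 2.44 in GFP- and 3.88 in Tomato- cells, also lower in all libraries of the Hoxb1GFP line. The Rara region had 2.38 and 2.17 against 3.26 and 2.91 (−0.43 ± 0.22, limma adjusted p = 0.687), and 2.36, 3.07 and 2.37 in the unmarked cells.

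**Figure D5:**
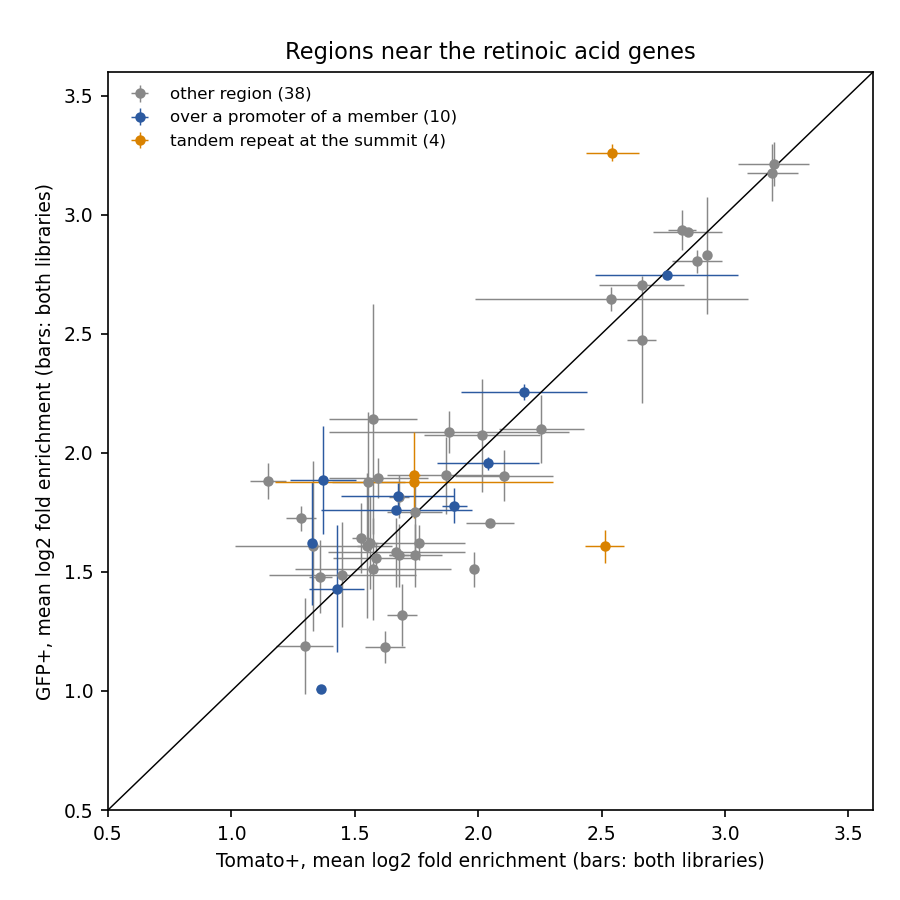
Mean log2 fold enrichment in Tomato+ (x axis) and GFP+ libraries (y axis), before normalization, for the 52 regions tested, with bars that join both libraries of a group and a line of equality. Regions over promoters of the 10 genes (10, blue) lie on both sides of the line, with differences of −0.34 to 0.53 after normalization, and the tandem repeats (4, orange) include the point farthest below it, the Aldh1a2 downstream region, and the Rarb intron 5 region above it at the upper right.

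The Rarb intron 5 region (chr14:16448517-16449077), the strongest region off promoters in the Rarb window, was higher in both sorts of the Hoxb1GFP line. An effect of the line was not tested. The region had 9.35 and 9.83 in GFP+, 12.08 and 9.92 in GFP-, 6.29 and 5.41 in Tomato+ and 5.98 in Tomato- cells. All 4 libraries of the Hoxb1GFP line were above all 3 of the Mef2c-Cre;RosatdT line in this 1 of 42 regions and in 3.01% of all regions. The reverse held in 3 of 42 and in 5.65% of all regions, at the Aldh1a2 downstream region, the Exoc6 region and chr11:98925864-98926187 near Rara. The log2 difference of GFP+ from Tomato+ cells was 0.71 ± 0.23 and was not called by limma (adjusted p = 0.508). At its summit 86.2% of bases equalled the base 5 positions before, and 4.48% of its runs of 49 bases occurred elsewhere. Whether the repeat had a part in the difference was not tested.

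Tandem arrays were thus at both the largest decrease and the second largest increase. A summit with at least 80% identity to the base 1 unit before, for units of up to 6 bases, was found in 6 of the 207 regions (2.90%) against 1.30% of all regions, and in 4 of the 42 with 7 values (9.52%) against 2.21%. With the 4 tested ones left out, a step added after the values were seen, the differences of the other 48 ran from −0.44 to 0.74, and 1 had an unadjusted p below 0.05. By all repeats together these regions were not rich, since a median of 4.65% of their bases was marked as repeat against 8.05% over all regions.

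The comparison within the Hoxb1GFP line, GFP+ against GFP- cells, tested 49 regions near these genes. Limma called none, here or in the genome (0% of 40498), and 5 had an unadjusted p below 0.05, against 8.03% of all regions. The median log2 difference was 0.032 and the range −0.85 to 0.56. Introns of Rarb made up 3 of the 5, all lower in GFP+ cells. The one at chr14:16841630-16842249, in intron 1, had 2.71 and 3.25 in GFP+ and 4.78 and 5.72 in GFP- cells, with 3.29, 3.11 and 2.59 in the Mef2c-Cre;RosatdT line (limma, adjusted p = 0.336). The one at chr14:16901634-16902241, also in intron 1, had 4.82 and 3.75 against 5.81 and 7.81, and the one at chr14:16733354-16734463, in intron 2, 4.52 and 4.0 against 6.30 and 6.13. These regions were outside the naming rule and were singled out after their values were seen. The other members of the 5 were the Aldh1a2 downstream region, lower, and the Wipf2 exon region, higher. GFP+ libraries enter both this comparison and that with Tomato+ cells, so that they are not independent.

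The comparison of Tomato+ with Tomato- cells rests on 1 Tomato- library and tested 42 regions. Limma called none of them and 0% of 33657 in the genome. None had an unadjusted p below 0.05, against 3.42% of all regions, and the log2 differences ran from −0.66 to 0.50.

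Presence and absence of peaks gave few regions particular to a population. Peaks in both GFP+ and neither Tomato+ library were found in 9 of the 207 regions (4.35%), against 3.30% of all regions, and the reverse in 5 (2.42%), against 2.66%. In 3 of the 207 both GFP+ libraries and no other had a peak, a pattern of 1.15% of all regions. These were the Aldh1a2 intron 1 region, chr7:66476308-66476414 upstream of Aldh1a3 (3.01 and 3.25) and chr11:98926197-98926301 upstream of Rara (3.34 and 2.54). The last of these starts 10 bases after the region chr11:98925864-98926187, which had a peak in all 7 libraries, at 2.73 and 2.28 in GFP+ and 3.37 and 3.10 in Tomato+ cells. In 2 of the 207 both GFP- libraries also had a peak and the Mef2c-Cre;RosatdT line had none, a pattern of 0.288% of all regions. One was the Aldh1a2 intron 12 region, and the other, in intron 2 of Aldh1a1 (chr19:20508513-20508821), had 3.92, 4.75, 3.02 and 3.53 in the 4 libraries of the Hoxb1GFP line. It was the strongest region off promoters near Aldh1a1.

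Beside the Aldh1a2 intron 13 region given above, the others with a q of at most 0.01 in a GFP+ library were in intron 2 of Lrrk1 near Aldh1a3 (chr7:66347354-66347536, at 3.18 and 3.25, and 2.99 in GFP- replicate 2) and upstream of Rarg (chr15:102258830-102259163, at 2.42 and 2.76, with 2.61 in GFP- replicate 1 and 3.07 in the Tomato- library). In Tomato+ cells the strongest was in exon 6 of Espl1, in the Rarg window (chr15:102302646-102302804), at 4.55 and 3.23, with 2.77 in GFP- replicate 2. A region downstream of Rara (chr11:98975179-98975474) had 3.33 and 2.27, and one in intron 3 of Rarg (chr15:102248964-102249063) had 2.62 and 1.92. Both also had a peak in the Tomato- library, at 2.46 and 2.05. None of the 5 regions with peaks in both Tomato+ and neither GFP+ library lay near Aldh1a2 or a Cyp26 gene.

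The strongest regions off promoters near the other genes, ranked by the median with a library without a peak counted as 0, were present in most libraries. Near Rara it lay in intron 8 of Cdc6, a replication gene (chr11:98916307-98916515), at 8.69, 9.90, 8.30, 10.13, 8.73, 8.29 and 7.85, where the groups overlapped. All of its bases were marked as repeat and 53.4% of its runs of 49 bases occurred elsewhere. Near Dhrs3 it was intergenic (chr4:144949292-144950500) at 6.04, 6.49, 8.53, 3.96, 5.97, 5.01 and 5.24, with Tomato+ replicates at both ends. Near Rarg it was in exon 3 of the integrin gene Itgb7 (chr15:102224210-102224897) at 3.48, 4.03, 3.75, 4.93, 5.80, 4.15 and 4.15. Near Cyp26b1 it was in intron 20 of Exoc6b (chr6:84640586-84640910), at 3.31, 3.75, 3.29, 3.11 and, in GFP- replicate 2, 2.99. Near Aldh1a3 it was in intron 2 of the gene itself (chr7:66419965-66420194), at 2.71 in GFP+ replicate 3, 2.83 in Tomato+ replicate 8, 2.99 in GFP- replicate 2 and 3.24 in the Tomato- library.

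Of 14 further genes of retinoid transport, binding and signalling, 11 to 13 had a promoter peak of q at most 0.01 in a library and 8 had one in all 7. Over all protein-coding genes 61% to 63.9% had one in a library and 53.3% in all 7, so that the count in all 7 is near the background. Rdh10, which makes retinaldehyde, had 7.02, 5.68, 4.17, 5.09, 5.18, 7.94 and 5.79. Rxrg, an RXR partner of the receptors, had 7.17, 4.99, 6.51, 3.94, 3.90, 5.28 and 4.39. Among marker genes, to be read beside the same 61% to 63.9% of all genes, promoters with such a peak numbered 4 to 6 of 7 for pSHF genes. For aSHF genes they numbered 3 to 5 of 6 in the libraries. They numbered 0 to 2 of 4 for blood, where Gata1 and Klf1 had none, 1 to 3 of 4 for endothelium, 2 or 3 of 3 for neural tube, 0 to 2 of 3 for neural crest and 0 to 2 of 3 for endoderm. A promoter peak does not mark expression, and the part of other cell types in the values above was not tested.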

How the data were processed

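The deposited files are the peak lists of 7 ATAC-seq libraries. The authors used the SNAP aligner on GRCm38, filtered out duplicate, secondary, improperly paired and blacklisted reads with SAMtools, and called narrow peaks library by library, without pooling. Submitters' processing notes name bcl2fastq 2.17.1.14, SAMtools, MACS2 2.1.1, DiffBind and HOMER, and the build mm10. A header is kept only with Tomato+ replicate 6 and names MACS 2.1.0.20150731, a p limit of 0.01, a shift of 37 and an extension to 73 bases without a control library, and a run name with the letters YFP where the label gives the Mef2c-Cre;RosatdT line. As deposited by the authors, pileup is tag coverage (signal) at a summit, with no scaling to depth. The fold enrichment deposited by the authors is the ratio of pileup plus 1 to local background plus 1, within a library. The deposited −log10 p and −log10 q values were computed by the authors' peak caller within a library and grow with depth.

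Lines of 1 peak with several summits were collapsed to that with the smallest p. Peaks of q at most 0.01 in any library, merged where they shared 1 base, were the regions, and a library's value there is its strongest overlapping peak. Start sites, exons and introns are those of curated RefSeq transcripts of GRCm38.p6. Log2 fold enrichments were quantile normalized and fitted with limma 3.58.1 with an intensity trend over all regions with a peak in each library compared, with Benjamini-Hochberg adjustment over all of them and an adjusted p below 0.1 called. Tomato+ and Tomato- cells were compared in a fit of all 7 libraries, which share 1 spread. The fit was tested on simulated data of 39984 regions, where 56 of 100 changes of 1 and 100 of 100 changes of 2 on the log2 scale were called, with 19 false calls. The simulated spread was smoothed over regions of like intensity, so that these shares do not give the power in the deposited data.

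Named were all promoter peaks of the 10 genes, the region off promoters with the highest median fold enrichment over the 7 libraries in each window, where a library without a peak counted as 0, regions with peaks in both GFP+ and neither Tomato+ library or the reverse with a q of at most 0.01, and the 3 largest differences in each direction without overlap of GFP+ and Tomato+. The genes, the lists and the tests were chosen with earlier results of these data known. Tandem identity was computed in 121 bases around the summit and copies by counting each run of 49 bases on both strands of the assembly. Alternatives to the normalization, value, thresholds, overlap, windows and libraries were computed. Depth was computed from the lowest background rate and limits weak peaks, whose listing changes with it. One gene of the retinoid list and 1 sequence are not reported here. Read counts were not used here, and 0 columns of other samples were set aside. Python 3.11.15, numpy 2.4.6, pandas 2.3.3, pysam 0.24.0, matplotlib 3.10.9 and R 4.3.3 were used.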

Additional observations from a re-analysis of the deposited data

Results flagged for a closer look

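In 4 regions the difference between marker-positive and marker-negative cells ran in opposite directions in the mouse lines, in that every GFP+ library differed one way from every GFP- library and both Tomato+ libraries the other way from the Tomato- library. This arrangement held in 11.1% of all regions with peaks in all 7 libraries, the difference itself was not tested, and the Tomato- side rests on 1 library.

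At exon 8 of Wipf2 in the Rara window (chr11:98902641-98902925) GFP+ cells were higher by 0.60 on the log2 scale of mean fold enrichment than GFP- cells, and Tomato+ differed from Tomato- cells by −0.21, a gap of 0.81. In intron 1 of Rarb (chr14:16841630-16842249) the differences were −0.82 and 0.30, a gap of −1.12. Nearby in the same intron (chr14:16845515-16846029) they were 0.41 and −0.69, a gap of 1.10, from fold enrichments of 3.61 and 3.75 in GFP+, 3.08 and 2.5 in GFP-, 4.93 and 2.26 in Tomato+ and 5.40 in Tomato- cells. At that region's summit 86.1% of bases equalled the base 6 positions before, and 68.7% of its runs of 49 bases occurred elsewhere in the genome. In intron 2 of Rarb (chr14:16628717-16629006) the differences were small, at −0.07 and 0.24 with a gap of −0.31, and all of its runs of 49 bases occurred elsewhere. No group had the 4 libraries that a test for a single outlying library needs.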

How the results depend on the processing

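Of 135 alternative values, all but 14 kept their direction and side of the threshold or, for counts, stayed within 1.5 times the value reported. Some could not have changed, since a count of 0 stays at 0 under a stricter threshold. The 14 were all counts of peaks or of regions by presence of peaks, most of them in the presence and absence patterns. No region near these genes was called by limma under any alternative in any of the 3 comparisons, with a lowest adjusted p of 0.250 to 0.993 for GFP+ against Tomato+ 0.281 to 0.882 for GFP+ against GFP- and 0.458 to 1.0 for Tomato+ against Tomato- cells. Over the genome, regions called in GFP+ against Tomato+ cells numbered 2 higher and 2 lower, but 19 higher and 32 lower with all 7 libraries in the fit and 0 with pileup per tag, no intensity trend, missing peaks filled in or any library left out. In GFP+ against GFP- cells they numbered 0, but 9 higher and 74 lower with median in place of quantile normalization. The causes were not tested. With a q of at most 0.0001, 2 of the 10 genes (Rara and Rarb) in place of 6 had a promoter peak in all 7 libraries. Over all protein-coding genes 44.2% did at that limit, in place of 53.3%. The median window then held 1.09 peaks per 100 kb in place of 4.72, where all genes had 1.98. Regions with peaks in both GFP+ and neither Tomato+ library numbered 9. With regions seeded at a q of 0.0001 they numbered 2 of 66 (3.03%, against 2.72% of all regions). Where only peaks of q at most 0.01 counted as present they numbered 4 (1.93%, against 1.5% of all regions). With 1 library left out they numbered 15 to 25, 15 without Tomato+ replicate 6 and 25 without GFP+ replicate 4. These were 7.25% to 12.1%, against 5.94% to 14.1% of all regions. The reverse numbered 5. With the stricter seeds it was 1 (1.52%, against 2.16% of all regions), and with an overlap of 50% it was 3 (1.45%, against 2.35%). Where only peaks of q at most 0.01 counted it was 7 (3.38%, against 1.21%). With 1 library left out it was 10 to 21, 10 without GFP+ replicate 3 and 21 without Tomato+ replicate 8. These were 4.83% to 10.1%, against 4.73% to 12% of all regions. The order of the 2 counts, 9 and 5, thus turned to 4 and 7 with peaks of q at most 0.01 only. With 1 library left out the pattern asks for fewer libraries, so that more regions meet it. For the Aldh1a2 gene body, the lowest GFP+ value over the highest of the others was 1.61 to 2.57 under other scalings and a p of at most 0.001, and 2.18 to 2.49 with 1 library left out, alternatives added after the values were seen. No paired analysis was possible because the replicate numbers are adapter numbers, none of which is shared by the groups. Weak peaks are limited by depth, and a missing peak does not show closed chromatin.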
